A study of Homo sapiens with 24 samples.

Results

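Untreated cells of the human leukaemia line MOLM14 were set against untreated cells of the line U937, as 3 MOLM14 Ctrl arrays against 3 U937 Ctrl arrays out of 24 arrays in the series. The arrays were selected by their cell line and treatment labels. MOLM14 is an acute myeloid leukaemia line that carries a KMT2A::MLLT3 fusion and an internal tandem duplication in FLT3. U937 came from a histiocytic lymphoma, carries a PICALM::MLLT10 fusion and is widely used as a model of monocytes. Both are commonly described as monocytic, although the labels do not use that word. The labels class untreated MOLM14 as high oxphos and untreated U937 as low oxphos, that is, as cells with high or low use of oxidative phosphorylation (OXPHOS). Each group is 1 cell line, so the line and its OXPHOS label cannot be told apart in this comparison.

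The groups used besides were MOLM14 Met and U937 Met, grown with 10 mM metformin for 24 h, and the untreated lines KG1a (high oxphos) and HL60 (low oxphos), each with 3 arrays. The series design names metformin as an inhibitor of complex I and states the aim of finding genes that mark high OXPHOS function. All cells were kept dividing in culture, and 250 ng of total RNA was labelled for each Affymetrix array. The labels number the arrays A to C but do not say that these were separate cultures, so p-values here rest on array-to-array spread, which may be technical.

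Monocytes arise from granulocyte and monocyte progenitors under the transcription factors PU.1 and IRF8 and the receptor for colony-stimulating factor 1. They carry receptors for bacterial products and chemokines, and they hold fewer azurophil granules than promyelocytes, in which myeloperoxidase is made. FLT3 is a receptor tyrosine kinase of progenitors whose duplicated form signals without ligand, in part through STAT5. Oxidative phosphorylation passes electrons from the TCA cycle and from fatty acid oxidation to oxygen and makes ATP, whereas glycolysis makes ATP from glucose in the cytosol.

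Values below are normalized signals on the log2 scale, so a difference of 1 is a 2-fold change. Differences are MOLM14 minus U937 means with the standard error (SE), and adjusted p-values come from limma's moderated test with Benjamini-Hochberg adjustment over 10641 genes and a threshold of 0.05. Signals under 4.02, the median of all array rows, were treated as low. A difference from such a mean is compressed and understates the change. In every gene below whose 6 values are given and that passed the test, the MOLM14 and U937 values did not overlap. The array U937 Ctrl C stood apart, with an interquartile range of 1.99 against 2.19 and 2.21 on the other U937 Ctrl arrays. Its lowest correlation within the group was 0.9866. The MOLM14 Ctrl arrays had interquartile ranges of 2.11, 2.14 and 2.25. No pair of arrays within a group was a duplicate.

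The lines differed in 5922 of the 10641 genes tested (55.7%), 2768 higher in MOLM14 (26.0%) and 3154 lower (29.6%). Without U937 Ctrl C, 5712 genes passed, 2538 higher and 3174 lower. Without it the mitochondrial ribosome list had 20 genes higher and 17 lower, complexes II to IV had 5 and 5, feedback genes of the MAPK pathway 3 and 8, apoptosis regulators 9 and 5, cytokines 3 and 6, ZNF genes 165 and 88 and microRNA loci 71 and 42. The counts of these lists with all arrays are given below, where every list stands against 26.0% of all genes higher and 29.6% lower. A difference of at least 1 was reached by 1452 genes (13.6%), with 711 higher (6.68%) and 741 lower (6.96%). At least 3 was reached by 159 genes (1.49%) and at least 5 by 19 (0.179%). The 3 MOLM14 and 3 U937 values did not overlap in 6410 genes (60.2%), of which 3045 lay wholly above (28.6%) and 3365 wholly below (31.6%). Over all genes the median difference was -0.01 and the median absolute difference 0.31, beside a median SE of 0.11. The range of the 3 values of a gene had a median of 0.20 in MOLM14 Ctrl and 0.22 in U937 Ctrl. In 514 of the 1452 genes (4.83% of those tested) 1 of the 2 means lay under 4.02, so that many of the larger differences set a line with clear signal against one with little.

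**Figure D1:**
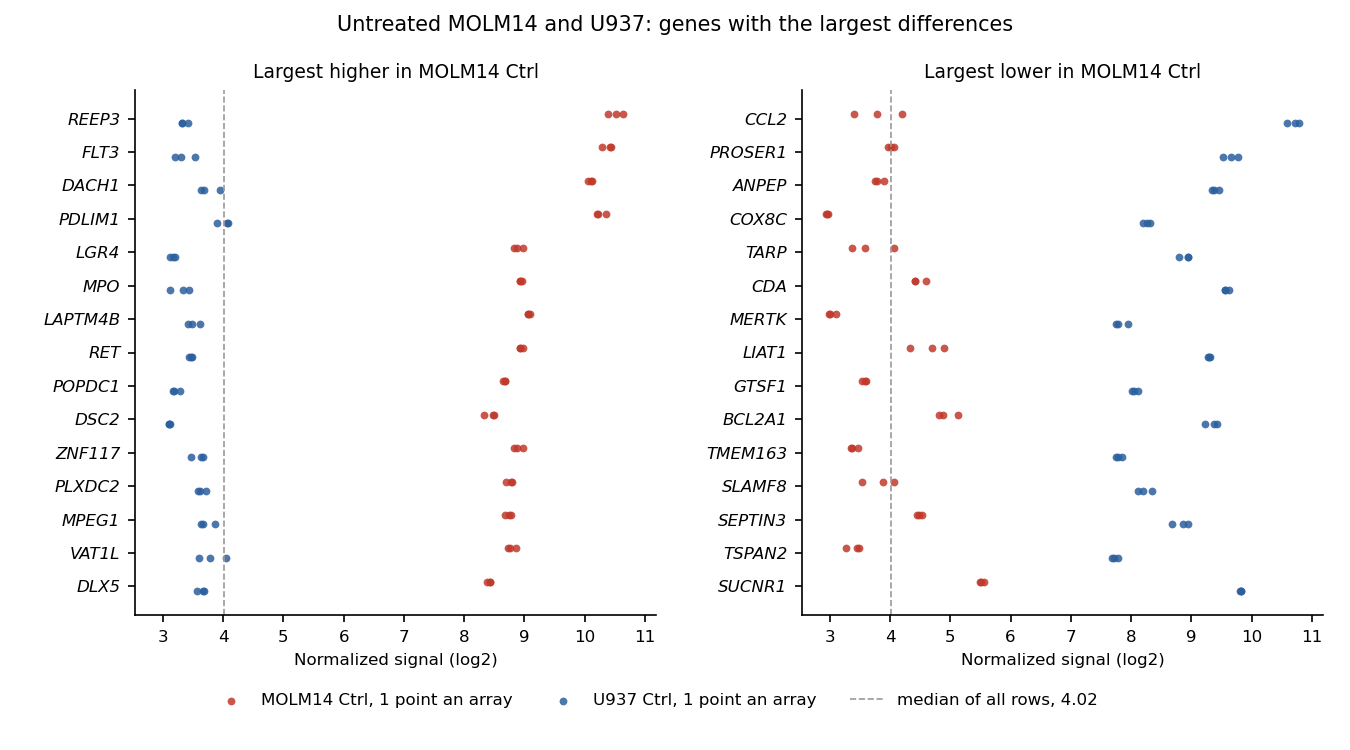
The 15 genes with the largest difference in each direction, by array. The x axis is the normalized signal (log2), red points are the 3 MOLM14 Ctrl arrays, blue points the 3 U937 Ctrl arrays, and the dashed line marks 4.02, the median of all rows. In each of the 30 genes the arrays of both lines do not overlap, which was a condition for showing them.

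FLT3 was among the largest differences, and U937 had little signal for it. The gene lay at 10.29, 10.42 and 10.44 in the MOLM14 Ctrl arrays, against 3.30, 3.20 and 3.54 in the U937 Ctrl arrays. The groups did not overlap, and the difference was 7.03 ± 0.10 (adjusted p = 1.08e-25), or 131-fold. KG1a and HL60 also had low FLT3 signals, with means of 3.28 and 3.64. REEP3, which shapes the endoplasmic reticulum and clears it from chromosomes in mitosis, gave 10.39, 10.52 and 10.63 in the MOLM14 Ctrl arrays, against 3.31, 3.41 and 3.32 in the U937 Ctrl arrays. Its difference was 7.16 ± 0.09, and U937 was the line that stood apart, since KG1a averaged 8.29 and HL60 7.90. DACH1, a transcriptional repressor of the retinal determination family, had values of 10.10, 10.12 and 10.06 in MOLM14 Ctrl and 3.69, 3.63 and 3.95 in U937 Ctrl, a difference of 6.34 ± 0.11. PDLIM1, a cytoskeletal adaptor that binds alpha-actinin, was at 10.35, 10.22 and 10.21 in MOLM14 Ctrl and 3.90, 4.07 and 4.08 in U937 Ctrl. These 4 genes were all far above the low range in MOLM14 and near or under it in U937.

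Promoters of FLT3 and DACH1 are shown because both genes had clear signal in MOLM14 and little in U937. The letters are the 250 bases before to 50 after the annotated start from RefSeq on GRCh38.p14, read 5′ to 3′ on the strand of the gene, which is the minus strand for both. FLT3 is at chr13:28100527-28100826 and DACH1 at chr13:71867155-71867454. Capitals mark GAGGAA on either strand, the core letters that the factor PU.1 binds. TATAAA, the C/EBP letters TTGCNNAA and the AP-1 letters TGANTCA were also searched on both strands and were not in these windows, and no 2 motifs overlapped.
FLT3 promoter: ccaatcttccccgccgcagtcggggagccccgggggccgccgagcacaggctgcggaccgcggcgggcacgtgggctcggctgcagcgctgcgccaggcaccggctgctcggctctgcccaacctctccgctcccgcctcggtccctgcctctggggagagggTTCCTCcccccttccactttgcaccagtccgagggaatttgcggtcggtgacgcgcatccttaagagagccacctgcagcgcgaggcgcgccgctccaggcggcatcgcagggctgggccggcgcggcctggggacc
DACH1 promoter: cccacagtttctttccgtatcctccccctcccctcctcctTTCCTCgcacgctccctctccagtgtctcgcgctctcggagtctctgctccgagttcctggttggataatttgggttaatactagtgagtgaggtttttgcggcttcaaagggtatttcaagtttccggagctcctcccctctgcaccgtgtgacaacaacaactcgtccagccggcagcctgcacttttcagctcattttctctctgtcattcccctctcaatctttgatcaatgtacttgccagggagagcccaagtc
Each window holds GAGGAA once, on the minus strand relative to the gene. The same letters occur in 27.9% of 35116 promoter windows of this length, TATAAA in 11.5%, TTGCNNAA in 10.5% and TGANTCA in 7.71%. The FLT3 window has 34 CpG dinucleotides and 74% G and C, and that of DACH1 has 12 and 53%.

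Other genes of the 15 largest higher differences belonged to receptors, membrane proteins and transcription factors. RET, a receptor tyrosine kinase for ligands of the GDNF family, had 8.98, 8.93 and 8.92 in MOLM14 Ctrl and 3.48, 3.46 and 3.43 in U937 Ctrl. LGR4, a receptor for R-spondins that strengthens Wnt signalling, differed by 5.73 ± 0.08, and DSC2, a desmosomal cadherin, by 5.32 ± 0.08. POPDC1, a membrane protein that binds cyclic AMP, differed by 5.45 ± 0.07, PLXDC2, a plexin-domain membrane protein, by 5.11 ± 0.07, and LAPTM4B, a lysosomal membrane protein, by 5.56 ± 0.08. The homeobox gene DLX5 had a difference of 4.78 ± 0.07, the zinc finger gene ZNF117 of 5.31 ± 0.08, and VAT1L, a homologue of a synaptic vesicle protein, of 4.97 ± 0.11. All 3 U937 values of these 9 genes lay under 4.02, except 1 of VAT1L. MPO and MPEG1, which complete the 15, are described with the granule and monocyte genes. Adjusted p was at most 9.62e-22 among the 15 genes, the value of VAT1L.

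The gene with the largest lower difference was CCL2, the chemokine that draws monocytes to inflamed tissue. It lay at 3.40, 3.78 and 4.20 in the MOLM14 Ctrl arrays, against 10.59, 10.79 and 10.72 in the U937 Ctrl arrays, a difference of -6.91 ± 0.16 (adjusted p = 1.32e-21) or 120-fold. U937 was again the line that stood apart: KG1a averaged 2.85 and HL60 2.80. ANPEP, the myeloid surface peptidase CD13, was at 3.79, 3.90 and 3.75 in the MOLM14 Ctrl arrays, against 9.34, 9.45 and 9.37 in the U937 Ctrl arrays, with a difference of -5.57 ± 0.11. PROSER1, a proline- and serine-rich nuclear protein, gave 4.06, 4.02 and 3.96 in MOLM14 Ctrl and 9.65, 9.78 and 9.53 in U937 Ctrl, and here MOLM14 was the low line, since KG1a averaged 9.96 and HL60 10.44. COX8C, a testis form of a cytochrome c oxidase subunit, was at 2.93, 2.95 and 2.97 in MOLM14 Ctrl and 8.31, 8.26 and 8.20 in U937 Ctrl. CDA, cytidine deaminase, which inactivates the drug cytarabine, was at 4.41, 4.59 and 4.42 in MOLM14 Ctrl and 9.55, 9.63 and 9.56 in U937 Ctrl. In these 5 genes no MOLM14 array came within 4 units of a U937 array.

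MERTK, a receptor tyrosine kinase by which macrophages take up dying cells, differed by -4.79 ± 0.11, with values of 2.99, 3.11 and 3.00 in MOLM14 Ctrl and 7.95, 7.78 and 7.75 in U937 Ctrl. SUCNR1, the succinate receptor, differed by -4.31 ± 0.16 but kept signal in MOLM14, with 5.56, 5.50 and 5.49 in MOLM14 Ctrl and 9.80, 9.83 and 9.83 in U937 Ctrl. BCL2A1, an inhibitor of apoptosis of the BCL2 family, differed by -4.40 ± 0.11, and SLAMF8, a surface protein of the SLAM family on macrophages, by -4.38 ± 0.14. TSPAN2, a tetraspanin, had a difference of -4.33 ± 0.09, TMEM163, a zinc transporter, of -4.40 ± 0.08, SEPTIN3, a septin best known from neurons, of -4.34 ± 0.09, and GTSF1, which acts in piRNA silencing in germ cells, of -4.49 ± 0.10. LIAT1 differed by -4.65 ± 0.11. It has 2 array rows, and with their mean the difference was -1.72, so its size depends on the row used. TARP differed by -5.23 ± 0.14. The gene lies within the locus of the T cell receptor gamma chain, from which its RNA cannot be told apart, and KG1a (8.76) and HL60 (7.87) had signal there too.

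RefSeq lists 2 starts for ANPEP, and both windows are shown because the gene had strong signal in U937 and little in MOLM14. In haematopoietic cells transcription is known to begin at the upstream start and in epithelial cells at the downstream one. The array gives 1 value for the gene and does not separate the starts. Both windows are on the minus strand of GRCh38.p14, the upstream one at chr15:89814803-89815102 and the downstream one at chr15:89806579-89806878. None of the 4 motifs above is in either, so no letter is in capitals.
ANPEP upstream start: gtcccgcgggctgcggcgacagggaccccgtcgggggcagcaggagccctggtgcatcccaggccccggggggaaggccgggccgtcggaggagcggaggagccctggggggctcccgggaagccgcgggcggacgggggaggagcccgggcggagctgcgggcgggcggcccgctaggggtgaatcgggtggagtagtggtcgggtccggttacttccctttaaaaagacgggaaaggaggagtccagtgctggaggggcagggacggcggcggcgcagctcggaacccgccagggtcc
ANPEP downstream start: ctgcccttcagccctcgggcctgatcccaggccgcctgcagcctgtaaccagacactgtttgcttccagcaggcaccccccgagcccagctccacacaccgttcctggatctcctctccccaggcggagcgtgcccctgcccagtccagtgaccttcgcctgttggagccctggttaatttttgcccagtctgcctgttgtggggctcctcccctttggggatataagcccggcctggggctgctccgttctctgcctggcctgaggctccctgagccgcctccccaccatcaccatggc
The upstream window has 32 CpG dinucleotides and the downstream one 10. For the counts that follow, each gene was represented by its window with the most CpG. Among the 15 genes with the largest higher difference, 10 had a promoter entry, with a median of 20.5 CpG. Of the 15 with the largest lower difference 12 had an entry, with a median of 11.5 CpG. The median over 27305 genes was 16, and the genes ranged from 2 to 41 in the higher set and from 0 to 50 in the lower set.

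Monocyte and macrophage markers were mostly higher in MOLM14. Of 40 listed markers 22 were named in the table and 18 were tested. Of these, 14 were higher and 2 lower (14 and 1 without U937 Ctrl C), 88.9% called against 55.7% of all genes, and their median difference was 1.06 against -0.01 for all genes. Mean levels over the 22 markers ranged from 6.22 to 6.28 in the MOLM14 Ctrl arrays and from 5.35 to 5.37 in the U937 Ctrl arrays, without overlap. Both lines had clear signal for general markers of the lineage: lysozyme (LYZ) averaged 9.88 ± 0.06 in MOLM14 and 9.43 ± 0.18 in U937 (SD, n = 3 each), CD68, a lysosomal protein of macrophages, 9.73 ± 0.07 and 8.59 ± 0.10, and SPI1, which encodes PU.1, 7.94 ± 0.04 and 7.58 ± 0.16. In KG1a the means of these 3 genes were 3.46, 5.04 and 4.65. HL60 averaged 7.26 for LYZ and 7.52 for SPI1, so clear signal for LYZ and SPI1 was not particular to MOLM14 and U937. The defining marker CD14, the co-receptor for lipopolysaccharide, was under 4.02 in both lines, with 3.62, 3.73 and 3.53 in MOLM14 Ctrl and 3.47, 3.38 and 3.46 in U937 Ctrl. CD163, VCAN and S100A12 were under it as well, while other markers of monocytes had signal, CCR2, S100A8 and CSF1R in MOLM14 and FCN1 in U937. Of the 22 markers, 5 averaged under 4.02 in MOLM14 and 8 in U937. RNA of whole cultures was measured, so fewer expressing cells and less RNA per cell cannot be told apart.

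MPEG1, which encodes the pore-forming protein perforin-2 of macrophages, had the largest difference of the list, 5.00 ± 0.08. Its values were 8.68, 8.77 and 8.75 in MOLM14 Ctrl and 3.64, 3.67 and 3.87 in U937 Ctrl, and KG1a and HL60 were low too, with means of 3.73 and 3.86. CCR2, the receptor for CCL2, was at 6.19, 6.36 and 6.03 in the MOLM14 Ctrl arrays, against 3.65, 3.60 and 3.71 in the U937 Ctrl arrays, a difference of 2.54 ± 0.10 (adjusted p = 1.25e-16). The receptor was thus higher in the line in which its ligand CCL2 was low. IRF8, which directs monocyte and dendritic cell fate, had 10.12, 10.33 and 10.22 in MOLM14 Ctrl and 8.21, 8.07 and 7.92 in U937 Ctrl. S100A8, a subunit of calprotectin, differed by 1.72 ± 0.11, CX3CR1, the fractalkine receptor, by 1.68 ± 0.09, and CSF1R, the receptor for colony-stimulating factor 1, by 1.62 ± 0.11. CD4 differed by 1.43 ± 0.10 and TYROBP, an adaptor of activating receptors, by 1.42 ± 0.11. The exceptions were FCN1, the secreted lectin ficolin-1 of monocytes, at 4.56, 4.32 and 4.24 in MOLM14 Ctrl and 6.38, 6.75 and 6.46 in U937 Ctrl, and S100A9, the partner of S100A8, at -0.37 ± 0.14. The call for S100A9 was lost without U937 Ctrl C, with -0.31 and adjusted p = 0.11.

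Azurophil granule genes were led by MPO, myeloperoxidase, at 8.92, 8.96 and 8.92 in the MOLM14 Ctrl arrays, against 3.33, 3.12 and 3.44 in the U937 Ctrl arrays. The difference was 5.64 ± 0.09 (adjusted p = 9.27e-25), and U937 had little signal. Of 10 such markers tested, 7 were higher and 2 lower, with a median of 0.38, or 0.27 after quantile normalization. CFD, complement factor D, was at 8.85, 8.85 and 8.73 in MOLM14 Ctrl and 5.62, 5.79 and 5.37 in U937 Ctrl. AZU1, azurocidin, differed by 1.39 ± 0.10, CTSG, cathepsin G, by 0.82 ± 0.08, and PRTN3, proteinase 3, by 0.44 ± 0.07. For these 3 protease-family genes U937 still had high signals, with means of 8.70, 10.43 and 11.82, unlike for MPO. NKG7, a granule membrane protein, was lower at 6.75, 6.53 and 6.35 in MOLM14 Ctrl and 9.69, 9.87 and 9.64 in U937 Ctrl, and GFI1, a transcriptional repressor that promotes granulocyte fate, differed by -1.34 ± 0.08. Neutrophil maturation markers averaged 3.94 to 4.01 over the list in MOLM14 and 4.13 to 4.25 in U937, and of 8 tested 1 was higher (BPI, a bactericidal granule protein, 1.05 ± 0.11) and 3 were lower, among them CEACAM6 (-1.93 ± 0.15), an adhesion molecule of granulocytes.

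Of 17 stem cell markers tested, 6 were higher and 2 lower, with a median of 0.08 (3 and 2 without U937 Ctrl C). FLT3 was the only one of the 6 to reach 1. The stem cell antigen CD34 was under 4.02 in both lines, at 3.60, 3.59 and 3.52 in MOLM14 Ctrl and 3.57, 3.27 and 3.75 in U937 Ctrl, and the receptor KIT averaged 4.24 and 4.06. ERG, an ETS factor of stem cells, was lower at 3.34, 3.36 and 3.48 in MOLM14 Ctrl and 5.61, 5.58 and 5.45 in U937 Ctrl, and HLF, a PAR-type factor of stem cells, differed by -1.20 ± 0.12. Markers of other lineages were low in both lines as lists, but some members had clear signal. T and NK cell markers averaged 4.29 to 4.39 over the list in MOLM14 and 3.82 to 3.84 in U937, with 7 of 14 members under 4.02 in MOLM14 and 8 in U937. Of 12 tested 2 were called, 16.7%: NCAM1, the adhesion molecule CD56, at 7.79, 7.74 and 8.01 in MOLM14 Ctrl and 3.48, 3.54 and 3.78 in U937 Ctrl, and IL7R, the interleukin-7 receptor, at 1.90 ± 0.11. CD2, CD5, CD7 and CD8A did not pass. B cell markers averaged 4.77 to 4.78 in MOLM14 and 4.27 to 4.32 in U937, with 3 of 7 higher and 3 lower. BANK1, a B cell scaffold protein, was at 6.72, 6.95 and 6.94 in MOLM14 Ctrl and 3.37, 3.37 and 3.60 in U937 Ctrl, PAX5, the B lineage factor, differed by 1.41 ± 0.11, and CD22, an inhibitory receptor, by -1.29 ± 0.12. Mast cell and basophil markers averaged 3.66 to 3.76 in MOLM14 and 3.90 to 4.01 in U937. Among them the tryptase genes TPSAB1 (-1.91 ± 0.21) and TPSB2 (-1.46 ± 0.18) were lower, although these are near-identical copies whose values are uncertain. The part of other cell types in these differences was not tested.

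Of the genes downstream of KMT2A fusions, PBX3, a partner of HOX proteins, was higher, with means of 8.15 ± 0.16 in MOLM14 and 5.55 ± 0.26 in U937 (SD, n = 3 each) and a difference of 2.61 ± 0.13. MEIS1, another partner, had almost equal levels, 6.80 ± 0.06 in MOLM14 and 6.53 ± 0.15 in U937 (SD, n = 3 each). Its difference of 0.27 ± 0.10 passed with adjusted p = 0.0236 but not without U937 Ctrl C (0.20, adjusted p = 0.122). MEIS2 differed by 1.82 ± 0.12, or by 1.08 with the mean of its 2 rows, and HOXA2 by 1.17 ± 0.12. Of 6 genes of the HOXA list tested 4 were higher and 0 lower, and the other 2 were PBX2 and EYA1. HOXA9 was not analysed here. Of 10 HOXB genes named only HOXB2 and HOXB9 were tested, neither passed, and both averaged near 4 or under in both lines. KMT2A, MLLT3 and MLLT10 were not analysed here. JMJD1C, a histone demethylase needed by KMT2A-driven leukaemia, was higher at 9.70, 9.92 and 9.87 in MOLM14 Ctrl and 7.08, 6.98 and 7.10 in U937 Ctrl. Its means in KG1a (8.16) and HL60 (8.17) lay between those of MOLM14 and U937. CDK6 differed by 0.94 ± 0.12, HMGA2 by 0.82 ± 0.09 and PICALM by 0.34 ± 0.09. Among 22 myeloid transcription factors 9 were higher and 6 lower, with a median of 0.08, and MYC and MYB did not pass. In KG1a minus HL60, CDK6 differed by 1.87, HMGA2 by 1.92, PICALM by 1.14, HOXA2 by 2.81, MEIS2 by 1.49 and PBX3 by 1.21. MEIS1 (0.13) and JMJD1C (-0.01) did not pass there. The HOXA list had a median of 0.72 in MOLM14 minus U937 and 0.68 in KG1a minus HL60. The part of the fusions in these differences was not tested.

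FLT3 signals through STAT5, and genes known to respond to STAT5 were higher in part. Of 16 tested, 9 were higher and 4 lower, with a median of 0.30. In KG1a minus HL60, lines that both had low FLT3 signals, 8 were higher and 4 lower, with a median of 0.39. The part of FLT3 in these differences was not tested. SOCS2, a feedback inhibitor of cytokine signalling, was at 6.75, 6.60 and 6.54 in the MOLM14 Ctrl arrays, against 4.37, 4.34 and 4.26 in the U937 Ctrl arrays, a difference of 2.31 ± 0.10 (adjusted p = 1.8e-16). SOCS1, another inhibitor, was at 5.55, 5.64 and 5.43 in MOLM14 Ctrl and 3.53, 3.71 and 3.49 in U937 Ctrl, and CISH, of the same family, differed by 0.62 ± 0.11. Other known targets were lower, BCL2L1 (BCL-XL) at -1.32 ± 0.11, and PIM1, a serine kinase, at -0.71 ± 0.10. MYC averaged 9.07 ± 0.10 in MOLM14 and 9.11 ± 0.08 in U937 and did not pass (95% interval of the difference -0.21 to 0.14). Feedback genes of the MAPK pathway were more often lower, 6 of 14 against 3 higher, with a median of -0.17. In MOLM14 Met minus U937 Met the median of this list was 0.23, of the opposite sign. DUSP4, a phosphatase of MAP kinases, was at 3.31, 3.34 and 3.40 in MOLM14 Ctrl and 5.15, 5.01 and 4.88 in U937 Ctrl, SPRY2, an inhibitor of receptor signalling, differed by -1.28 ± 0.10, and the ETS factor ETV5 by -1.01 ± 0.11. FOS, a subunit of AP-1, was higher, at 1.21 ± 0.14.

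**Figure D2:**
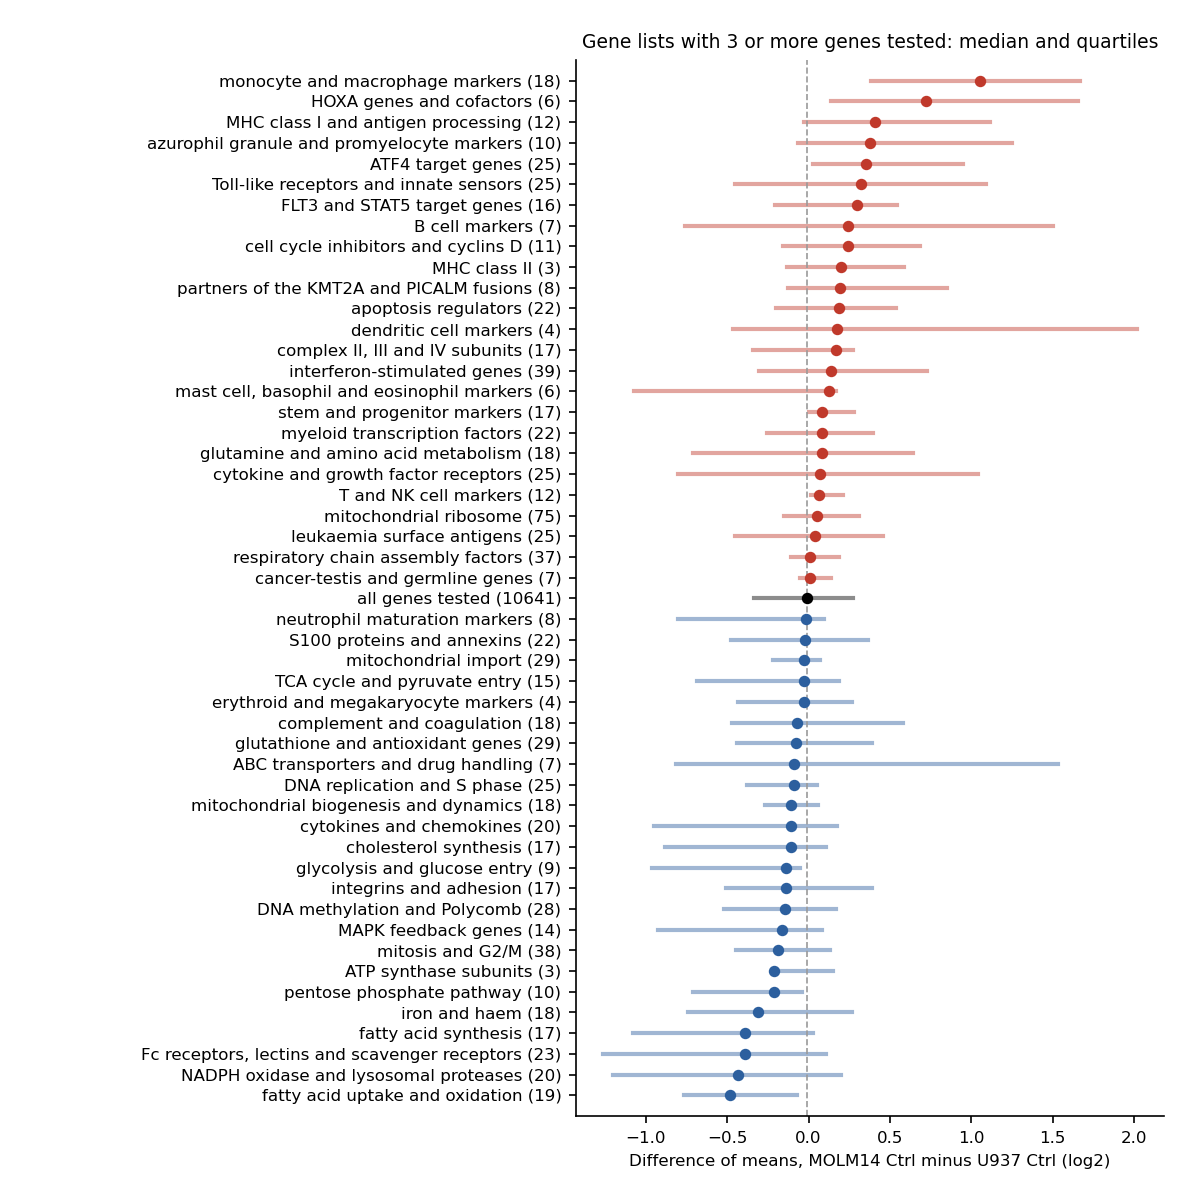
Difference of untreated MOLM14 and U937 means (log2, x axis) for gene lists with 3 or more genes tested, the number in brackets. Points are medians and bars the quartiles over the genes of a list, red above and blue below the median of all 10641 genes (dashed line). Monocyte and macrophage markers had the highest median, 1.06, and genes of fatty acid uptake and oxidation the lowest, -0.48.

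Genes of the respiratory chain differed in both directions. None of 38 complex I subunits was named in the table, so they were not analysed here. Of 17 subunits of complexes II, III and IV, 7 were higher and 5 lower, 70.6% called, with a median of 0.17 and none reaching 1. COX8C, described above, is not among these 17. COX7A2, a subunit of complex IV, was highest at 7.50, 7.89 and 7.73 in MOLM14 Ctrl and 6.66, 6.72 and 6.82 in U937 Ctrl. UQCRC2, a core protein of complex III, was lowest at 10.15, 10.32 and 10.28 in MOLM14 Ctrl and 10.91, 10.90 and 10.86 in U937 Ctrl, and UQCRC1, its partner, differed by -0.42 ± 0.08. COX4I1, COX6A1, COX6C and COX7C were higher by 0.22 to 0.39, and COX5A and COX7B were lower by 0.53 and 0.56. Only 3 ATP synthase genes were tested, ATP5MK at 0.51 ± 0.08, ATP5MJ at -0.21 ± 0.08 and ATP5IF1, the inhibitor of the synthase, at -0.23 ± 0.09. Of 37 assembly factors 7 were higher, 6 lower and 24 did not pass, 35.1% called against 55.7% of all genes. ECSIT of complex I assembly differed by 0.90 ± 0.10, COX11, which brings copper to complex IV, by -1.07 ± 0.09, and ATPAF1, which assembles the F1 part of ATP synthase, by -0.93 ± 0.09.

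Enzymes of the TCA cycle were more often lower in MOLM14, 7 of 15 against 4 higher, 73.3% called against 55.7% of all genes, with a median of -0.03. The list held 38 genes, of which only these 15 were tested. All 3 subunits of NAD-dependent isocitrate dehydrogenase were lower: IDH3B, at 7.39, 7.35 and 7.50 in MOLM14 Ctrl and 8.74, 8.85 and 8.57 in U937 Ctrl, differed by -1.31 ± 0.09, IDH3A by -1.13 ± 0.08 and IDH3G by -0.39 ± 0.09. PDHA1, with means of 7.03 in MOLM14 and 8.03 in U937, and PDHB (-0.56 ± 0.09) of pyruvate dehydrogenase were lower too, while DLAT, its second component, differed by 0.28 ± 0.07. Citrate synthase (CS), the first step of the cycle, was higher at 9.25, 9.10 and 9.31 in MOLM14 Ctrl and 8.72, 8.66 and 8.44 in U937 Ctrl. PC, pyruvate carboxylase, differed by 0.63 ± 0.11. Mitochondrial ribosome genes were higher in 23 and lower in 13 of 75, 48.0% called, with a median of 0.05, or -0.01 after quantile normalization. Among them were MRPS21 at 1.34 ± 0.07, MRPS28 at 1.09 ± 0.10 and MRPS17 at -0.73 ± 0.08. Of 29 import genes 5 were higher and 7 lower, 41.4% called, and TOMM40, the outer membrane channel, differed by -0.75 ± 0.09. PINK1, a kinase of mitophagy, was lower at -1.08 ± 0.09.

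Fatty acid genes were mostly lower in MOLM14. Of 19 genes of uptake and oxidation tested, from 42 listed, 13 were lower and 4 higher, 89.5% called, with a median of -0.48. ECI2, an enoyl-CoA isomerase of peroxisomes and mitochondria, was at 3.74, 3.51 and 3.47 in the MOLM14 Ctrl arrays, against 7.30, 7.26 and 7.21 in the U937 Ctrl arrays, the largest difference of the list at -3.68 ± 0.09 (adjusted p = 2.51e-21). CD36, a fatty acid transporter, was at 4.83, 5.10 and 5.05 in MOLM14 Ctrl and 5.93, 6.09 and 5.80 in U937 Ctrl. ACAA2, the mitochondrial thiolase, differed by -0.84 ± 0.10, HADH by -0.58 ± 0.09, and CPT1A, which admits fatty acids to mitochondria, by -0.23 ± 0.09. PPARG, a nuclear receptor of lipid storage, differed by -0.97 ± 0.11. ETFDH, which passes electrons of fatty acid oxidation to ubiquinone, was higher at 0.43 ± 0.11. Of 17 fatty acid synthesis genes 12 were lower and 1 higher, a median of -0.39. The desaturases FADS1 (-1.15 ± 0.10), FADS2 (-1.31 ± 0.09) and FADS3 (-1.08 ± 0.12) were all lower, as were SCD5 (-1.21 ± 0.11) and the mitochondrial acetate enzyme ACSS1, at 5.29, 5.20 and 5.16 in MOLM14 Ctrl and 6.75, 6.77 and 6.89 in U937 Ctrl. ELOVL6, an elongase, was the exception at 1.11 ± 0.10. Of 17 cholesterol synthesis genes 8 were lower and 3 higher, with SQLE, squalene epoxidase, at 7.35, 7.43 and 7.37 in MOLM14 Ctrl and 8.84, 8.80 and 8.76 in U937 Ctrl, INSIG1, a sterol-regulated brake on the pathway, at -1.28 ± 0.09, and HSD17B7, which also acts in sterol synthesis, higher at 5.68, 5.73 and 5.72 in MOLM14 Ctrl and 3.35, 3.20 and 3.22 in U937 Ctrl.

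Of 9 glycolysis genes tested, from 29 listed, 4 were lower and 2 higher. Hexokinase 1 (HK1) was at 5.23, 5.15 and 5.19 in MOLM14 Ctrl and 6.82, 6.67 and 6.83 in U937 Ctrl, hexokinase 2 (HK2) differed by -0.96 ± 0.10, GPI, the next enzyme, by -0.96 ± 0.08, and PGK1 by -0.63 ± 0.07. LDHA, which makes lactate, averaged 8.38 ± 0.13 in MOLM14 and 8.46 ± 0.20 in U937 (SD, n = 3 each) and did not pass (95% interval -0.32 to 0.17). Of 10 pentose phosphate genes 5 were lower, among them PRPS1 (-1.12 ± 0.13) and RPIA (-0.85 ± 0.10), and only PGLS was higher (0.69 ± 0.09). The higher glycolysis genes were PGAM1 (0.42 ± 0.13) and LDHB (0.28 ± 0.08).

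Targets of ATF4, the factor of the amino acid stress response, were higher in 14 and lower in 5 of 25, with a median of 0.35. DDIT4, an inhibitor of mTORC1, was at 7.62, 7.55 and 7.59 in the MOLM14 Ctrl arrays, against 4.62, 4.85 and 4.75 in the U937 Ctrl arrays, a difference of 2.85 ± 0.11 (adjusted p = 6.21e-17). ASNS, asparagine synthetase, was at 7.19, 7.29 and 7.29 in MOLM14 Ctrl and 5.72, 5.66 and 5.73 in U937 Ctrl, and WARS1, a tRNA synthetase that interferon also induces, differed by 1.37 ± 0.07. The pseudokinase TRIB3 was lower at 5.72, 5.49 and 5.84 in MOLM14 Ctrl and 7.31, 7.25 and 7.16 in U937 Ctrl, and CTH, of cysteine synthesis, differed by -0.96 ± 0.13. In amino acid metabolism KYNU, kynureninase of tryptophan breakdown, was at 7.76, 7.81 and 7.78 in MOLM14 Ctrl and 4.20, 4.37 and 4.18 in U937 Ctrl, PYCR1, of proline synthesis, differed by 1.63 ± 0.11, and OAT, ornithine aminotransferase, by -1.68 ± 0.09. The antioxidant list split 12 to 12 of 29. GPX7, a peroxidase of the endoplasmic reticulum, was at 7.68, 7.67 and 7.76 in MOLM14 Ctrl and 3.63, 3.81 and 3.67 in U937 Ctrl, GSTM4 differed by 2.80 ± 0.12, TXNIP, which restrains glucose uptake, by 2.61 ± 0.12, and catalase (CAT) by -1.41 ± 0.08. Of 18 iron and haem genes 10 were lower and 5 higher, with BLVRA, biliverdin reductase A, at 4.09, 4.20 and 4.05 in MOLM14 Ctrl and 7.06, 7.16 and 6.80 in U937 Ctrl.

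Innate immune receptors separated the lines in both directions. TLR4, the receptor for lipopolysaccharide, was at 3.87, 3.73 and 3.88 in the MOLM14 Ctrl arrays, against 7.38, 7.69 and 7.28 in the U937 Ctrl arrays, a difference of -3.62 ± 0.12 (adjusted p = 2.4e-18). TLR2, which recognises lipoproteins, and its partners TLR1 and TLR6 were higher instead, by 1.09 ± 0.13 for TLR2, 1.24 ± 0.10 for TLR1 and 1.30 ± 0.13 for TLR6. Of 25 genes of this list 13 were higher and 8 lower. LY86, which chaperones the TLR4-like receptor CD180, was at 8.96, 8.83 and 8.86 in MOLM14 Ctrl and 6.78, 6.70 and 6.65 in U937 Ctrl, IRAK3, a brake on Toll-like receptor signalling, differed by 1.47 ± 0.08, and IRAK2 by -2.04 ± 0.09. Of 20 cytokine genes 7 were lower and 5 higher. The chemokine CXCL8 was at 3.74, 3.62 and 3.49 in MOLM14 Ctrl and 6.55, 6.53 and 6.24 in U937 Ctrl, IL32 at 3.88, 3.74 and 3.89 in MOLM14 Ctrl and 7.26, 7.41 and 7.18 in U937 Ctrl, and TNF, which has 8 array rows, at 8.65, 8.67 and 8.51 in MOLM14 Ctrl and 6.43, 6.79 and 6.59 in U937 Ctrl. IL1RN, the antagonist of interleukin-1, was higher at 0.98 ± 0.09 and OSM, oncostatin M, at 0.37 ± 0.12. CXCL10 (0.35 ± 0.14) and HBEGF (0.35 ± 0.14) passed as well, but not without U937 Ctrl C, with adjusted p of 0.283 and 0.187. IL18, CCL5 and IL16 were lower, by -1.01 ± 0.13, -0.97 ± 0.09 and -0.94 ± 0.10. CCL23 was called lower at -0.29 ± 0.12, but not without U937 Ctrl C (-0.07, adjusted p = 0.557). Of 25 receptors 11 were higher and 11 lower, with FPR2, a receptor for formylated peptides, at 3.27, 3.01 and 2.93 in MOLM14 Ctrl and 6.18, 6.20 and 5.87 in U937 Ctrl, and IL18R1, the interleukin-18 receptor, at -2.70 ± 0.10.

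Of 8 genes of the SIGLEC family of sialic acid receptors that were tested, 6 were lower in MOLM14, 0 were higher and 2, SIGLEC11 and SIGLEC15, did not pass. This tally by symbol was made after the values were seen. Many of the receptors inhibit myeloid cells. SIGLEC12 was at 3.96, 4.08 and 4.02 in MOLM14 Ctrl and 7.97, 8.16 and 8.04 in U937 Ctrl, SIGLEC7 at 3.60, 3.44 and 3.24 in MOLM14 Ctrl and 7.10, 7.18 and 7.12 in U937 Ctrl and SIGLEC5 at 3.43, 3.47 and 3.52 in MOLM14 Ctrl and 6.64, 6.78 and 6.52 in U937 Ctrl. SIGLEC6 differed by -2.90 ± 0.12, SIGLEC10 by -2.29 ± 0.10 and SIGLEC14, nearly identical to SIGLEC5 in part, by -2.50 ± 0.11. These 6 lie on chromosome 19, are close paralogues whose rows may share RNA, and averaged at most 4.40 in MOLM14 and at least 6.60 in U937. The inhibitory receptor SIRPA was lower too, at -1.31 ± 0.11. Of 23 Fc receptors, lectins and scavenger receptors 12 were lower and 4 higher, a median of -0.39. CD209, a lectin of dendritic cells and macrophages, was higher at 1.49 ± 0.21. Of 20 oxidase and lysosome genes 11 were lower and 5 higher, with a median of -0.44. CST7, cystatin F, was at 9.35, 9.33 and 9.21 in MOLM14 Ctrl and 12.04, 12.13 and 12.10 in U937 Ctrl, and the enzymes CTSH (-2.36 ± 0.08), CTSD (-1.86 ± 0.09) and HEXA (-1.81 ± 0.08) and the membrane protein LAMP2 (-1.51 ± 0.09) were lower. CTSL, cathepsin L, was higher at 1.80 ± 0.12.

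Interferon-stimulated genes were higher in 19 and lower in 10 of 39, 74.4% called against 55.7% of all genes, of which 26.0% were higher and 29.6% lower. XAF1, a pro-apoptotic protein, was at 8.75, 8.79 and 8.84 in the MOLM14 Ctrl arrays, against 4.98, 5.09 and 5.08 in the U937 Ctrl arrays, a difference of 3.75 ± 0.08 (adjusted p = 1.22e-22). SAMD9L, an antiviral growth suppressor, was at 7.17, 7.24 and 7.14 in MOLM14 Ctrl and 4.44, 4.56 and 4.21 in U937 Ctrl, and RIGI, the sensor of viral RNA, differed by 1.93 ± 0.09. MX2, an antiviral GTPase, went the other way at 3.69, 4.08 and 3.89 in MOLM14 Ctrl and 7.56, 7.68 and 7.42 in U937 Ctrl, and so did IFIH1, the sensor MDA5, at -1.79 ± 0.12. The sensors RIGI and MDA5 thus differed in opposite directions. ERAP2, a peptidase that trims antigens for MHC class I, was at 7.44, 7.33 and 7.48 in MOLM14 Ctrl and 4.95, 4.95 and 4.70 in U937 Ctrl, and ERAP1 differed by 1.53 ± 0.11, while B2M, the light chain of class I, did not pass. Of 12 genes of MHC class I processing 6 were higher and 1 lower.

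Genes of survival and drug handling differed strongly in single members. BCL2 was higher in MOLM14, at 8.71, 8.95 and 8.91 in the MOLM14 Ctrl arrays, against 7.25, 7.50 and 7.13 in the U937 Ctrl arrays, a difference of 1.57 ± 0.09 (adjusted p = 2.24e-13), and BIK, a pro-apoptotic member of its family, was at 7.08, 7.04 and 6.95 in MOLM14 Ctrl and 4.64, 4.57 and 4.79 in U937 Ctrl. MCL1 differed by 0.43 ± 0.09, while BCL2L1 and BCL2A1, described above, were lower. Of 22 apoptosis regulators 11 were higher and 4 lower. SAMHD1, which breaks down deoxynucleotides and the active form of cytarabine, was at 9.26, 9.19 and 9.39 in the MOLM14 Ctrl arrays, against 5.53, 5.56 and 5.22 in the U937 Ctrl arrays, a difference of 3.84 ± 0.10. CDA, which inactivates cytarabine itself, was lower as given above, so the enzymes that act against the drug differed in opposite directions. DCK, which activates it, averaged 7.23 ± 0.05 and 7.10 ± 0.10 and did not pass. ALDH2, aldehyde dehydrogenase, was at 6.36, 6.39 and 6.37 in MOLM14 Ctrl and 3.37, 3.41 and 3.57 in U937 Ctrl. CDKN2A, which encodes the cell cycle inhibitors p16 and p14ARF, was at 3.22, 3.29 and 3.02 in MOLM14 Ctrl and 5.50, 5.37 and 5.32 in U937 Ctrl, so that it was under 4.02 in MOLM14. E2F7, a repressive E2F factor, was at 7.50, 7.81 and 7.65 in MOLM14 Ctrl and 3.54, 3.44 and 3.79 in U937 Ctrl. Replication genes were lower in 10 and higher in 4 of 25, and mitosis genes lower in 18 and higher in 7 of 38, with medians of -0.09 and -0.19. CDC25A differed by -1.33 ± 0.11, CENPI by -1.22 ± 0.11 and BUB3 by 1.05 ± 0.07, while MKI67 did not pass.

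Zinc finger genes named ZNF, most of which bind DNA and many of which repress repeats, were set apart by symbol. Of 423 tested, 170 were higher and 84 lower, 60.0% called against 55.7% of all genes, with a median of 0.15. At least 1 was reached by 69 higher and 22 lower genes. ZNF521, a progenitor factor, was at 8.39, 8.35 and 8.36 in MOLM14 Ctrl and 3.71, 3.65 and 3.85 in U937 Ctrl, ZNF562 at 7.56, 7.49 and 7.51 in MOLM14 Ctrl and 3.13, 3.03 and 3.21 in U937 Ctrl and ZNF215 at 7.38, 7.42 and 7.38 in MOLM14 Ctrl and 3.27, 3.17 and 3.03 in U937 Ctrl. ZNF93, which represses retroelements, was lower at 3.33, 3.50 and 3.78 in MOLM14 Ctrl and 7.28, 7.44 and 6.85 in U937 Ctrl.

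The array also carries rows for microRNA loci. MicroRNAs are short RNAs that pair with messages through their seed, bases 2 to 8. The rows report RNA at the locus, not the mature microRNA. Of 503 loci tested 74 were higher and 47 lower, 24.1% against 55.7% of all genes, with a median of 0.03. Signals were low, with a mean over the 1072 loci named of 3.95 in MOLM14 Ctrl and 3.92 in U937 Ctrl. Differences may therefore be understated. The sequences shown are those of loci among the 5 largest differences each way, of miR-15a, which shares the seed of miR-15b, and of miR-221 and miR-222, whose loci were both lower and of which MIR221 is taken up again with metformin. MIR548I1, MIR548I2 and MIR548I3 are named only. They come from RefSeq on GRCh38.p14, and capitals mark the seed.
miR-181b-5p: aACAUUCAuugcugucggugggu
miR-15a-5p: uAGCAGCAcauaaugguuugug
miR-15b-5p: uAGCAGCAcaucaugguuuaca
miR-378i: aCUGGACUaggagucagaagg
miR-4441: aCAGGGAGgagauugua
miR-580-3p: uUGAGAAUgaugaaucauuagg
miR-221-3p: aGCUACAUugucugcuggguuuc
miR-222-3p: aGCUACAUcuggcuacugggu
miR-1299: uUCUGGAAuucugugugaggga
miR-601: uGGUCUAGgauuguuggaggag
The first 6 come from loci that were higher in MOLM14 and the last 4 from loci that were lower. The pair miR-15a and miR-15b shares the seed AGCAGCA, and the pair miR-221 and miR-222 shares GCUACAU.

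MIR181B1, on the minus strand at chr1:198858925-198858947 for its mature form, was at 6.85, 6.60 and 6.66 in MOLM14 Ctrl and 4.31, 3.83 and 3.89 in U937 Ctrl. Its locus lies in the transcript MIR181A1HG, which differed by 1.17 ± 0.12. MIR15A (chr13:50049167-50049188, minus strand) was at 7.50, 7.37 and 7.68 in MOLM14 Ctrl and 5.72, 5.36 and 5.63 in U937 Ctrl, and MIR15B (chr3:160404607-160404628, plus strand) at 6.45, 6.44 and 6.35 in MOLM14 Ctrl and 4.31, 4.55 and 4.45 in U937 Ctrl. These loci lie on different chromosomes and share the seed, and both were higher by similar amounts, 1.95 ± 0.14 and 1.98 ± 0.14. MIR16-1, which lies beside MIR15A in the same cluster, differed by -0.08 ± 0.21 and did not pass (adjusted p = 0.774). SMC4, the host gene of MIR15B, differed by 0.69 ± 0.08. MIR4441 differed by 3.25 ± 0.21, MIR378I by 2.67 ± 0.18, and MIR580 by 2.16 ± 0.17, beside 1.96 ± 0.09 for LMBRD2, its host gene. MIR221 (chrX:45746180-45746202, minus strand) was at 6.81, 6.93 and 7.23 in MOLM14 Ctrl and 8.32, 8.26 and 8.06 in U937 Ctrl, and MIR222 (chrX:45747036-45747056, minus strand), next to it, at 3.24, 3.12 and 3.37 in MOLM14 Ctrl and 4.41, 4.26 and 4.29 in U937 Ctrl. Both of this pair were lower. MIR1299 differed by -1.84 ± 0.32 and MIR601 by -1.57 ± 0.19. The largest lower differences were at MIR548I2 (-3.97 ± 0.19), MIR548I1 (-3.77 ± 0.18) and MIR548I3 (-2.47 ± 0.22), near-identical copies whose rows cannot be told apart with confidence. With the mean of their rows MIR548I1 gave -2.20 and MIR548I2 -1.93.

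**Figure D3:**
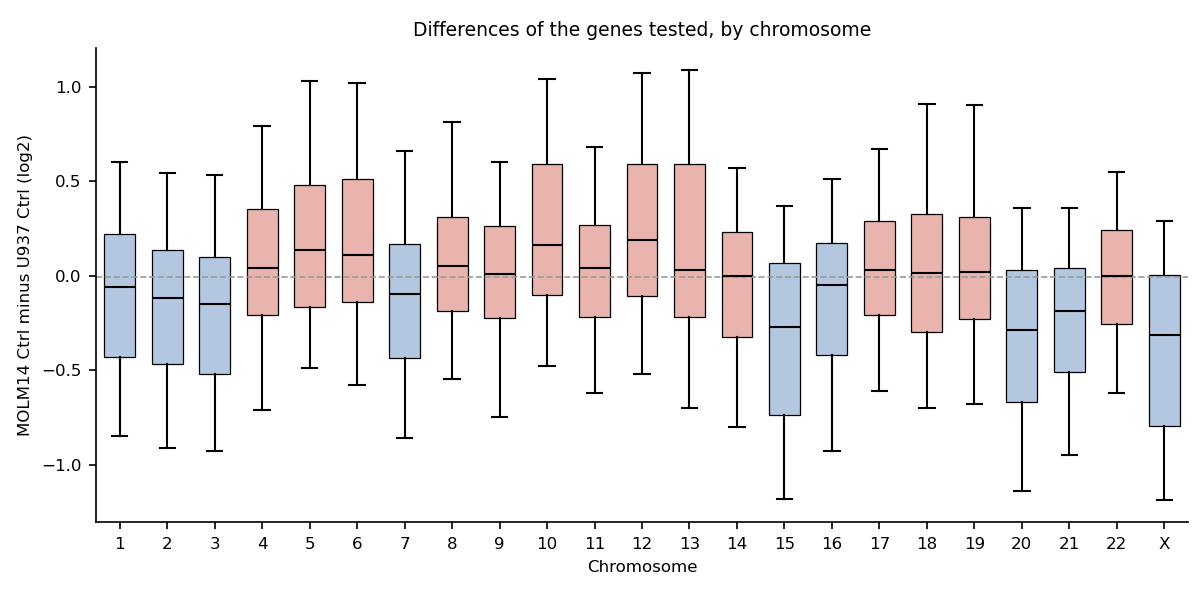
Differences of untreated MOLM14 and U937 means (log2, y axis) for the genes tested on each chromosome (x axis). Boxes give the quartiles with the median, whiskers the 10th and 90th percentiles, red where the median is above and blue where it is below that of all genes (dashed line). Chromosomes 12, 10, 5 and 6 had the highest medians and X, 20, 15 and 21 the lowest.

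The differences were not spread evenly over the chromosomes, which were taken from RefSeq on GRCh38.p14. Chromosome 12 had the highest median, 0.19, with 257 of 558 genes higher (46.1%) and 101 lower. Chromosome 10 followed with 0.16 (176 of 419 higher, 42.0%), chromosome 5 with 0.13 (179 of 434 higher, 41.2%) and chromosome 6 with 0.11 (187 of 538 higher, 34.8%). Chromosome X had the lowest, -0.31, with 192 of 352 genes lower (54.5%) and 35 higher. Chromosome 20 had -0.29 (153 of 291 lower, 52.6%), chromosome 15 had -0.27 (175 of 346 lower, 50.6%) and chromosome 21 had -0.19 (57 of 131 lower, 43.5%). In KG1a minus HL60 the medians of chromosomes 12, X, 20 and 15 were -0.16, -0.10, -0.11 and 0.06. Within chromosomes, runs of 25 neighbouring genes shifted together. From BAG2 to SH3BGRL2 on chromosome 6, 23 of 25 genes were above 0, with a median of 0.97, and from RWDD2A to CCNC on the same chromosome 21 were, with 0.73. From RAD1 to CCL28 on chromosome 5, 24 of 25 were above 0, with 0.82. From FPR2 to ZNF160 on chromosome 19 the median was 0.82, although FPR2 itself was lower. From CIB2 to GOLGA2P10 on chromosome 15 the median was -1.03 with 21 of 25 below 0, from LIMS1 to TTL on chromosome 2 it was -0.76, and from LANCL3 to UBA1 and from PIR-FIGF to APOO on chromosome X it was -0.78. These runs were picked as the extremes of all windows, so their size is a description. With metformin, on other arrays, their medians were 1.08, 0.56, 0.77, 0.56, -0.92, -0.76, -0.63 and -0.71 in the same order. In KG1a minus HL60 they were 0.05, -0.12, -0.13, 1.33, 0.10, -0.02, -0.16 and 0.03, so that the run on chromosome 19 had a higher median in that pair. DNA copy number was not analysed here.

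The untreated pair KG1a and HL60 carries the same OXPHOS labels and shares no array with MOLM14 and U937. KG1a and HL60 also differed in lineage genes. CD34 averaged 11.24 in KG1a and 3.61 in HL60, SPI1 4.65 and 7.52, and MPO 3.26 and 12.48. In MOLM14 and U937 the means were 3.57 and 3.53 for CD34, 7.94 and 7.58 for SPI1, and 8.93 and 3.30 for MPO. Line, lineage and OXPHOS label cannot be told apart in this pair either. KG1a and HL60 differed in 6106 genes (57.4%), 2826 higher in KG1a (26.6%) and 3280 lower (30.8%). Their arrays include HL60 Ctrl C, which had an interquartile range of 1.90, and without it 6036 genes passed. Across the 10641 genes the differences of the pairs correlated at r = 0.01, a description, since genes are not independent. Genes past the threshold in both pairs numbered 3767 (35.4%). Of these 1919 (18.0% of all tested) had 1 sign and 1848 (17.4%) opposite signs, so 50.9% of them shared the sign. The 1919 are 32.4% of the MOLM14 and U937 calls and 31.4% of the KG1a and HL60 calls, with 822 higher in both (7.72%) and 1097 lower in both (10.3%). The differences themselves differed between the pairs in 6577 genes (61.8%), 3191 higher (30.0%) and 3386 lower (31.8%).

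**Figure D4:**
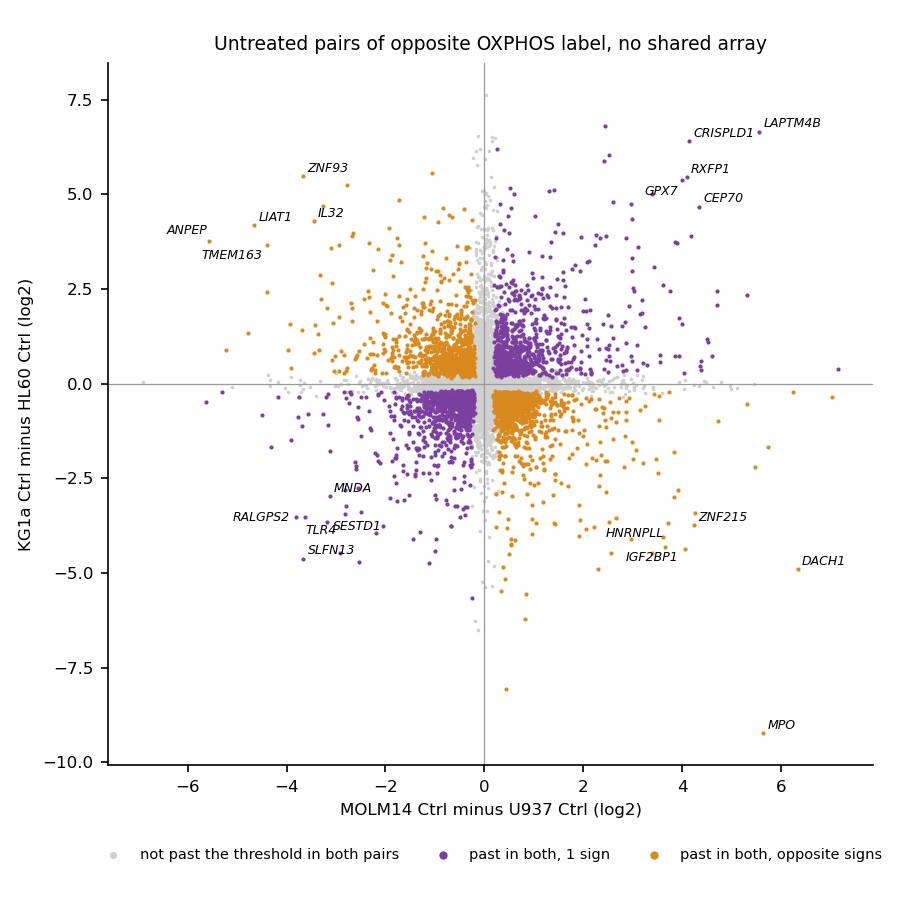
Difference of the untreated pair MOLM14 and U937 (log2, x axis) against that of the untreated pair KG1a and HL60 (log2, y axis), 1 point a gene. Purple genes passed the threshold in both pairs with 1 sign (1919), orange with opposite signs (1848), grey the rest, and named genes are the 5 most extreme of each kind. The cloud forms a cross with no slope, r = 0.01.

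Among genes higher in both lines labelled high oxphos were LAPTM4B, with 5.56 ± 0.08 in MOLM14 minus U937 and 6.66 ± 0.08 in KG1a minus HL60, and CEP70, a centrosome protein, with 4.35 ± 0.10 and 4.68 ± 0.10. CRISPLD1, a secreted protein, had 4.14 ± 0.08 and 6.40 ± 0.08, RXFP1, the relaxin receptor, 4.10 ± 0.09 and 5.47 ± 0.09, and GPX7, whose MOLM14 and U937 values are given above, 5.38 ± 0.11 in KG1a minus HL60. Genes lower in both were SLFN13, a tRNA nuclease, with -3.66 ± 0.10 and -4.62 ± 0.10, TLR4 with -3.62 ± 0.12 and -3.53 ± 0.12, RALGPS2, a Ral exchange factor, with -3.80 ± 0.10 and -3.51 ± 0.10, SESTD1 with -3.18 ± 0.12 and -3.65 ± 0.12, and MNDA, a nuclear antigen of myeloid cells, with -3.13 ± 0.10 and -2.96 ± 0.10. MNDA was at 6.81, 6.74 and 7.06 in MOLM14 Ctrl and 10.07, 10.06 and 9.86 in U937 Ctrl. None of these 10 genes encodes a respiratory chain subunit or a TCA cycle enzyme. Few such genes could have appeared, since the lists held 17 tested subunits of complexes II to IV and 3 of ATP synthase. They held 15 tested genes of the TCA cycle and pyruvate entry, and complex I subunits were not analysed here. None of the 17 reached a difference of 1 in MOLM14 minus U937. Absence from the 10 most extreme genes therefore cannot show whether the shared genes relate to OXPHOS, which was not tested.

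MPO had the largest opposite difference, 5.64 ± 0.09 in MOLM14 minus U937 and -9.23 ± 0.09 in KG1a minus HL60, so that the pairs differed by 14.86 ± 0.13 (adjusted p = 4.99e-30). It was high in MOLM14 and HL60 and low in U937 and KG1a. DACH1 had 6.34 ± 0.11 and -4.89 ± 0.11 and a pair difference of 11.22 ± 0.15. IGF2BP1, an RNA-binding protein, had 4.06 ± 0.08 and -4.36 ± 0.08. ANPEP, with -5.57 ± 0.11 and 3.78 ± 0.11, and LIAT1, TMEM163, ZNF93 and IL32 were lower in MOLM14 than in U937 and higher in KG1a than in HL60. FLT3, REEP3 and CCL2 were large in the MOLM14 and U937 pair alone, with -0.36 ± 0.10, 0.38 ± 0.09 and 0.05 ± 0.16 in KG1a minus HL60. The tests of the difference gave 7.40 ± 0.14, 6.78 ± 0.13 and -6.96 ± 0.23, all with adjusted p of at most 9.86e-19. FLT3, REEP3 and CCL2 were selected for large differences in MOLM14 minus U937, which enter these tests. They were named here for small differences in KG1a minus HL60, so the p-values add no support. The monocyte list, with a median of 1.06 in MOLM14 minus U937, had -0.13 in KG1a minus HL60, the azurophil list 0.38 and -2.62, the ATF4 list 0.35 and -0.92, and the interferon list 0.14 and 0.74. Complex II to IV subunits had 0.17 and -0.02, the mitochondrial ribosome 0.05 and -0.36, and fatty acid uptake and oxidation -0.48 and 0.05.

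The metformin-treated arrays measured the same lines again on separate arrays. MOLM14 Met and U937 Met differed in 6028 genes (56.6%), 2949 higher (27.7%) and 3079 lower (28.9%). Of the 5922 genes called without metformin 97.0% had the same sign with it, and 84.1%, or 4981 (46.8% of those tested), also passed. Opposite signs past the threshold occurred in 11 genes (0.103%). Across genes the differences with and without metformin correlated at r = 0.96, again a description. A test of the change in the difference passed in 225 genes (2.11%), 105 where the MOLM14 minus U937 difference was higher with metformin (0.987%) and 120 where it was lower (1.13%), and 15 of them reached 1 (0.141%).

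**Figure D5:**
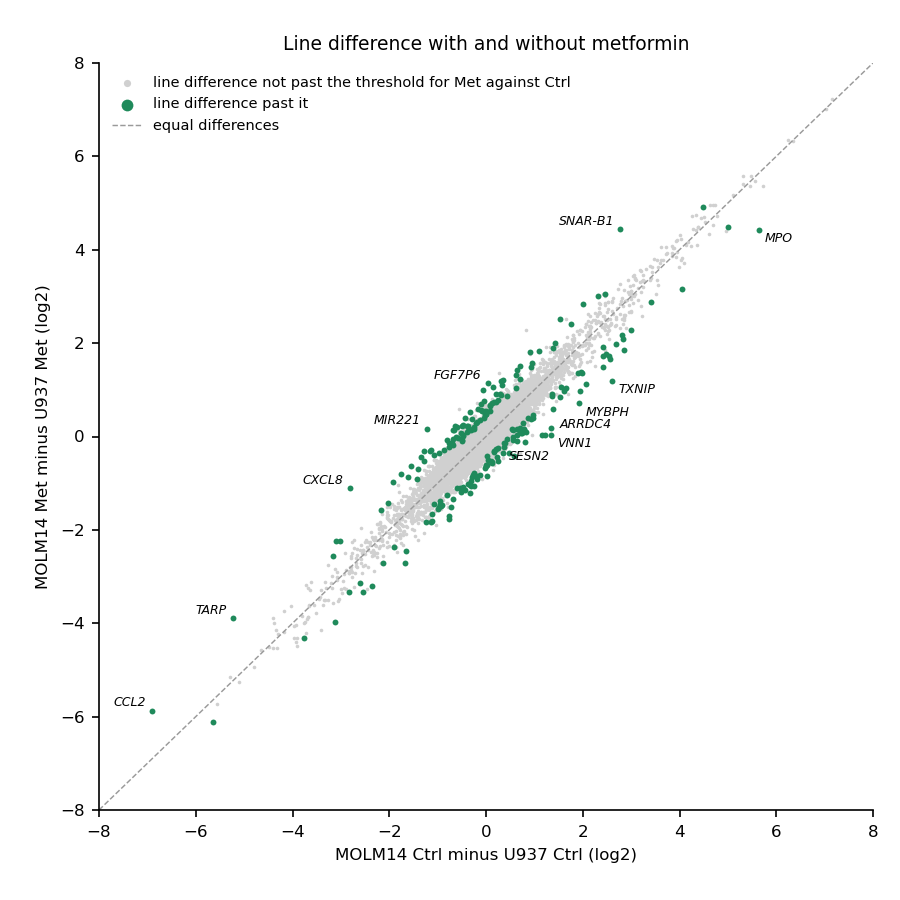
MOLM14 minus U937 difference with 10 mM metformin for 24 h (log2, y axis) against that without metformin (log2, x axis), 1 point a gene. Green genes are the 225 whose difference differed between treatments, named where they are in the text and the change reached 1, and the dashed line marks equal differences. Most genes lie along the line, r = 0.96.

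The genes below are among those of the groups above whose line difference differed between treatments, with 4 of the largest line differences for comparison. For CXCL8 the MOLM14 minus U937 difference was -1.11 ± 0.15 with metformin and -2.82 ± 0.15 without it, a change of 1.72 ± 0.21 (adjusted p = 5.08e-05). Its level with metformin minus that without was 0.06 ± 0.15 in MOLM14 and -1.66 ± 0.15 in U937. For CCL2 the difference was -5.87 ± 0.16 with metformin and -6.91 ± 0.16 without it, and the within-line changes were 0.00 ± 0.16 in MOLM14 and -1.03 ± 0.16 in U937. MPO gave 4.43 ± 0.09 and 5.64 ± 0.09, with -1.32 ± 0.09 in MOLM14. TXNIP gave 1.19 ± 0.12 and 2.61 ± 0.12, with -1.64 ± 0.12 in MOLM14 and -0.23 ± 0.12 in U937, and the related arrestin gene ARRDC4 gave 0.18 ± 0.15 and 1.35 ± 0.15. In MOLM14 Ctrl, CXCL8 and CCL2 averaged 3.62 and 3.79, under 4.02. MPO and ARRDC4 averaged 3.30 and 3.51 in U937 Ctrl, also under it. A fall could hardly register at such levels, so line-specific responses cannot be read from these 4 changes. SESN2, which restrains mTORC1 under stress, gave 0.04 ± 0.12 and 1.16 ± 0.12, with 0.71 ± 0.12 in MOLM14 and 1.83 ± 0.12 in U937, so that the lines stood close with metformin. DDIT4 gave 1.86 ± 0.11 and 2.85 ± 0.11. INSIG1 gave -0.32 ± 0.09 and -1.28 ± 0.09, with -1.16 ± 0.09 in MOLM14 and -2.12 ± 0.09 in U937. MIR221, lower in MOLM14 without metformin, gave 0.17 ± 0.15 with it. FLT3 (7.01 ± 0.10), ANPEP (-5.72 ± 0.11), PDLIM1 (6.35 ± 0.09) and CDA (-5.26 ± 0.11) kept differences close to those without metformin, and their changes did not pass (adjusted p of 0.954, 0.709, 0.765 and 0.717).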

How the data were processed

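Expression was measured on 24 arrays of 4 lines, 3 per group, and the 3 MOLM14 Ctrl arrays were compared with the 3 U937 Ctrl arrays. The authors deposited 1 table of normalized signals, taken as log2 from its range of 1.88 to 14.2. Partek was the software, per the submitters' processing notes. How background was removed, how arrays were normalized and which build was used is not given in the sources here. The platform annotation names 1 gene for 16098 of 53617 rows, all matched to RefSeq (GRCh38.p14), and 37519 rows are unnamed here. For each of 14884 genes the row with the highest mean over 24 arrays was used, 779 genes having over 1 row. Genes were kept where at least 1 of 8 group means reached 4.02, which left 10641. limma 3.58.1 (R 4.3.3) fitted 8 group means on all arrays with 16 residual degrees of freedom, and a contrast was called at an adjusted p under 0.05. The calculations were tested on simulated data.

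Members and lists were chosen with earlier results of these data known. Named genes are the 15 largest differences each way with arrays that do not overlap, up to 4 members of each list with the smallest adjusted p, a fixed set, the 5 largest each way of both pairs, of microRNA loci and of the metformin test. Other list members, MIR15A, MIR16-1, MIR222, MIR181A1HG, SMC4 and LMBRD2 were named after their values were seen. The replicate letters did not pair the arrays, with correlations of deviations of -0.016, -0.096 and -0.171 for A, B and C. The alternatives were quantile normalization, centring, other filters, a trend, a replicate block, the mean of rows, subsets of arrays, and each array left out. Protein-coding genes only, list medians without U937 Ctrl C and the chromosome runs were chosen after seeing the data. 1 gene list is not reported here. Intervals are 95%. The number of arrays limits the precision. Figures used matplotlib 3.10.9 in Python 3.11.15.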

Additional observations from a re-analysis of the deposited data

Results flagged for a closer look

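The MOLM14 minus U937 difference of 32 named genes differed between metformin-treated and untreated arrays by limma's test of the difference itself, with adjusted p under 0.05. Values are the difference with metformin minus that without it (log2). It was higher with metformin for CXCL8 (1.72), SNAR-B1 (1.67), MIR221 (1.39), TARP (1.34), FGF7P6 (1.10), CCL2 (1.03), INSIG1 (0.96), CEACAM6 (0.95), TNF (0.82), FPR2 (0.78), SPRY2 (0.76), SIGLEC5 (0.60), MYC (0.53) and SQLE (0.52). SNAR-B1 has near-identical copies, FGF7P6 is a pseudogene with 2 rows, and TARP lies within the T cell receptor gamma gene, so their values are uncertain. It was lower with metformin for TXNIP (-1.41), VNN1 (-1.31), MYBPH (-1.22), MPO (-1.21), ARRDC4 (-1.18), SESN2 (-1.12), DDIT4 (-0.99), E2F7 (-0.89), MNDA (-0.86), CCR2 (-0.80), MIR181B1 (-0.71), CSF1R (-0.65), SOCS1 (-0.59), MPEG1 (-0.53), WARS1 (-0.50), ASNS (-0.48), PROSER1 (-0.46) and KIF15 (-0.45). In MOLM14 Ctrl the means of CXCL8, TARP, CCL2, CEACAM6, FPR2, SIGLEC5 and PROSER1 lay under 4.02. In U937 Ctrl those of VNN1, MYBPH, MPO, ARRDC4, E2F7, CCR2, MIR181B1, SOCS1 and MPEG1 did. For these genes a fall in the low line could hardly register.

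The MOLM14 minus U937 difference also differed from the KG1a minus HL60 difference, in the same test, for the 10 genes with the largest opposite differences, which were selected for it. The first minus the second was 14.86 for MPO, 11.22 for DACH1, 8.43 for IGF2BP1, 7.97 for ZNF215 and 7.39 for HNRNPLL, and -9.35 for ANPEP, -9.14 for ZNF93, -8.84 for LIAT1, -8.07 for TMEM163 and -7.73 for IL32.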

How the results depend on the processing

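The count of genes that differed between untreated MOLM14 and U937 stayed within 1.5 times of 5922 under every alternative except the demand of a difference of at least 1, which by its construction left 1452. It was 6032 after quantile normalization (2627 higher, 3405 lower), 5781 with centred arrays (2667 and 3114), 5915 with a replicate block, 5725 on the 6 arrays alone, 5011 at an adjusted p under 0.01, and 5522 to 5712 with 1 array left out. The arrays share only a letter, and the block moved no count by over 1.5 times. The count for metformin against untreated, 225, was less stable, at 309 after quantile normalization, 155 centred and 189 with the replicate block. With 1 array left out it ranged from 130 (without MOLM14 Ctrl B) to 246 (without U937 Ctrl C). It was 133 without MOLM14 Met C, 138 without MOLM14 Met A and 148 without U937 Ctrl A; the cause was not tested. Of 253 named genes in the fit 236 passed, no difference reversed under 17 alternatives, and 5 lost their call in at least 1: ATP5IF1, ATP5MJ, CCR7, GATA2 and MEIS1. Of list members named besides, S100A9, CXCL10, HBEGF and CCL23 lost theirs without U937 Ctrl C. The mean of rows gave -1.72 for LIAT1, 1.08 for MEIS2, -2.20 for MIR548I1 and -1.93 for MIR548I2. Signal over background was not analysed here, so differences of low genes may be understated.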

Other observations

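Surface proteins of adhesion and cell recognition not described above also differed between untreated MOLM14 and U937. CD81, a tetraspanin, was at 5.50, 5.51 and 5.59 in MOLM14 Ctrl and 3.74, 3.89 and 3.62 in U937 Ctrl, and ICAM2, a ligand of leukocyte integrins, differed by 1.51 ± 0.14. CD99, an adhesion protein of leukaemic stem cells, was lower at 9.28, 9.26 and 9.31 in MOLM14 Ctrl and 10.17, 10.27 and 10.26 in U937 Ctrl, and CD47, which restrains phagocytes, differed by -0.92 ± 0.09. Of 17 genes of integrins and adhesion 5 were higher and 7 lower. CD70, a ligand of the TNF family, was higher at 8.60, 8.75 and 8.66 in MOLM14 Ctrl and 6.67, 6.67 and 6.34 in U937 Ctrl, and CD93, a receptor of myeloid and endothelial cells, lower at 7.77, 7.53 and 7.41 in MOLM14 Ctrl and 10.25, 10.32 and 10.12 in U937 Ctrl.

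Among calcium-binding proteins ANXA4, an annexin, was at 10.14, 9.98 and 10.08 in MOLM14 Ctrl and 7.24, 7.25 and 7.22 in U937 Ctrl, and S100B at 3.21, 3.03 and 3.18 in MOLM14 Ctrl and 4.90, 5.09 and 4.86 in U937 Ctrl. Of 22 S100 and annexin genes 6 were higher and 8 lower. Polycomb and DNA methylation genes were lower in 13 and higher in 6 of 28, with RBBP7, a histone-binding subunit, at -1.14 ± 0.08, CBX2 at -1.10 ± 0.13, and TET2, which oxidizes methylcytosine, higher at 6.77, 6.80 and 6.90 in MOLM14 Ctrl and 5.91, 5.88 and 6.00 in U937 Ctrl. These counts stand beside 26.0% higher and 29.6% lower over all genes.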
